A study of Gallus gallus with 6 samples.

Results

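The proteasome is the protease that degrades ubiquitin-tagged proteins in every cell, and its subunit genes were followed here in the ileum of chickens with and without a probiotic. The genes were taken by symbol, as every row whose symbol starts with PSM, a letter from A to G and a digit, with an FPKM (a fragment count scaled for transcript length and library size) of at least 1 in either group. The rule found 40 of the 17623 rows, and all 40 met the FPKM minimum, which 12828 rows of the whole table met. The lowest gene, PSMD8, stood at FPKM 4.96 in the controls, so no gene lay close to the minimum. By role they were 7 alpha and 5 beta subunits of the 20S core, 6 ATPases and 11 other subunits of the 19S cap, 7 assembly chaperones, 2 activators and 1 inhibitor. The last row, PSMC3IP, carries the name of a partner of PSMC3 but encodes a factor of meiotic recombination and is no subunit. Of the 40, 32 also carried the KEGG pathway name Proteasome in the table.

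The samples were pieces of ileum, the last segment of the small intestine, from male Taiping chickens 2 months old. Per the labels, 3 control birds (CT) ate a corn and soybean basal diet with no supplement (0 mL of probiotic per litre of water), and 3 birds (MP) had the same basal diet and 2 mL of probiotic per litre of drinking water. The labels give neither the strains in the probiotic nor the length of the supplementation. The comparison asks how ileal gene expression differs between supplemented and unsupplemented birds.

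The 20S core is a barrel of stacked rings. The outer rings, of alpha subunits, gate the entrance, and the inner rings, of beta subunits, hold the proteolytic sites. The 19S cap recognises ubiquitin chains, removes them in its lid, and unfolds the substrate with the ATPase ring of its base. Dedicated chaperones build the core and the base and leave the finished particle. In the intestine, as in other tissues, the proteasome clears misfolded and short-lived proteins and produces the peptides shown on MHC class I molecules. Birds are known to lack the inducible catalytic subunits that mammals use for that last purpose.

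The authors deposited 1 mean FPKM and 1 mean count per gene and group, so each value below is the mean of 3 libraries and no spread between birds, standard deviation or p-value can be given. Summed over all genes the mean count was 17150865 for CT and 15928865 for MP. Differences are MP minus CT on the log2(FPKM + 1) scale, which understates those of low genes. Count ratios are MP to CT, divided by the ratio of total counts, with an exact 95% interval for counting error only. In a piece of tissue, fewer cells of a type and less RNA per cell cannot be told apart. Several cell type markers differed between the groups beside the proteasome genes. Of 4 smooth muscle markers 0 were higher in MP, and their summed FPKM was 2533 in CT and 1646 in MP. Of 4 fibroblast markers 0 were higher (442 and 318), and of 2 detected markers of cycling cells 0 were higher (45.3 and 28.9). Of the 8 rows of 7 epithelial markers 7 were higher, although their sum was lower in MP (6826 in CT and 5694 in MP). Both red cell markers were higher (59.6 and 113), and so were 2 of 3 B and plasma cell markers (698 and 1309). Of the 6 rows of T cell markers 0 were higher (554 and 465), with both rows for CD8A under FPKM 1. Markers of macrophages (80.4 and 71.4) and of endothelium (80.1 and 62.6) had 0 rows higher, goblet cell markers 2 of 4 (4507 and 3771) and liver markers 2 of 3 (50.4 and 55.5), with ALB and FGB under FPKM 1. All 4 pancreas markers lay under FPKM 1. The part of these tissue differences in the proteasome values was not tested.

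Proteasome genes were almost level between the groups, and lay slightly above the bulk of genes. Of the 40 genes, 28 were higher in the MP mean and 12 lower, where 37.7% of all 12828 genes tested were higher. Their median difference was 0.062 in log2, with a range from -0.28 to 0.53, and the median of all genes was -0.069, which 32 of the 40 exceeded. Another scaling moves all genes alike, so it can carry a small difference across 0 without changing its place among all genes. With equal FPKM totals the median was 0.0033 for the 40 genes and -0.12 for all genes, a distance of 0.13 as with the deposited values. Within 1.1-fold of equality lay 27 of 40 genes, against 42.2% of all genes and 43.6% of the 9913 genes with FPKM of at least 5. At least 1.1-fold higher were 10 (20.7% of all genes) and at least 1.1-fold lower were 3 (37.1%). Past a log2 difference of 0.32 1 gene, PSMG4, was higher (8.49%) and 0 were lower (11.2%). At 1.5-fold 0 were higher (2.87%) and 0 lower (1.97%). The middle of the differences was also narrow: the distance between quartiles was 0.16 for the 40 genes and 0.29 for all genes with FPKM of at least 5. The 2 sets were not matched for level, with a median FPKM in CT of 52.5 for the 40 genes and 18.0 for the others. Together the 40 genes took 0.362% of all counts in CT and 0.378% in MP, a depth-scaled ratio of 1.044 (1.038 to 1.051).

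**Figure D1:**
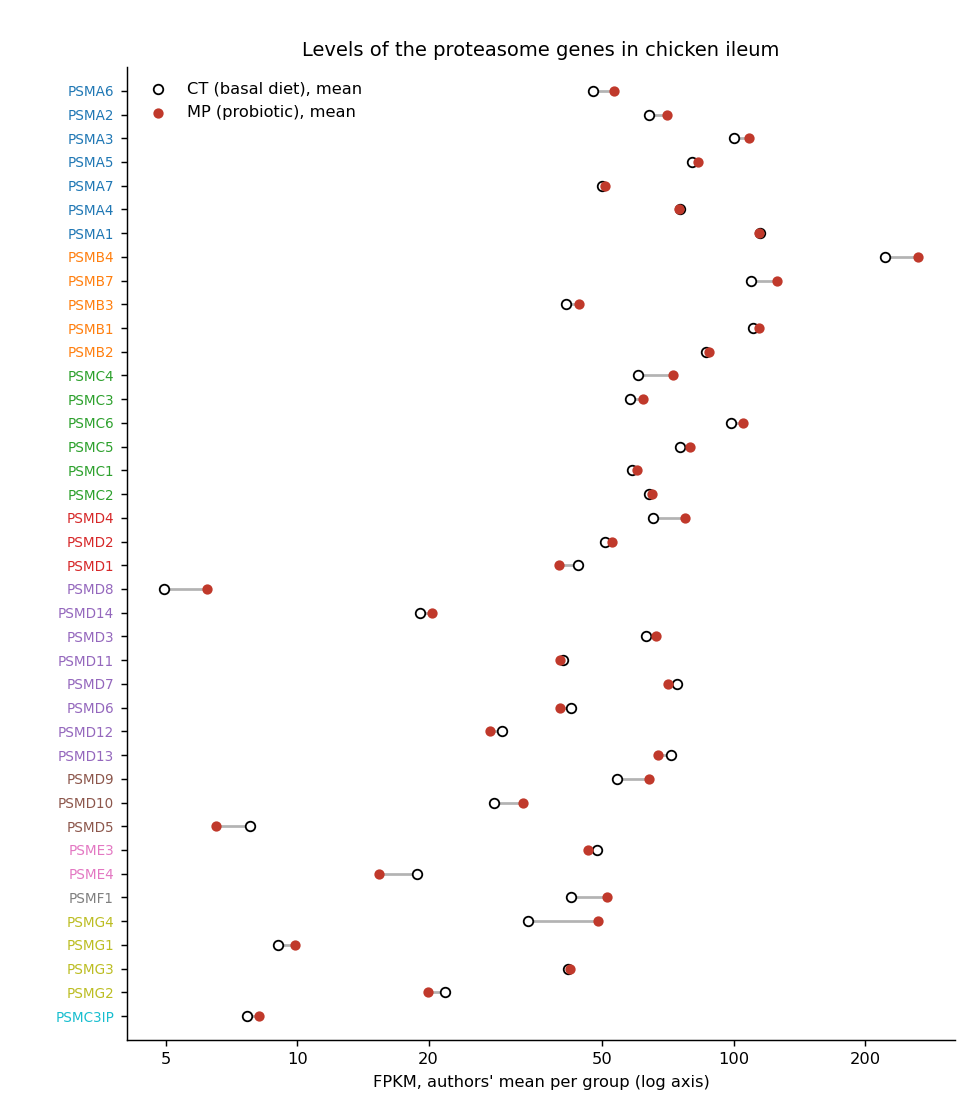
Authors' mean FPKM of each gene in CT (open circles) and MP (filled circles), on a log axis, with names coloured by role. The circles of most genes nearly coincide, PSMB4 is the highest at 222 and 265, and PSMG4 has the widest gap at 33.8 and 49.0.

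The alpha ring, whose subunits form the gate of the core, had 5 of 7 genes higher in MP, against 37.7% of all genes. Its median difference was 0.045. At equal FPKM totals 3 of 7 were higher (-0.014), against 30.1% of all genes. The median of the ring lay 0.11 above that of all genes under both scalings. PSMA6 stood at FPKM 47.5 in CT and 53.3 in MP, a difference of 0.16 and a count ratio of 1.12 (1.08 to 1.17). PSMA2 was at 64.1 and 70.5 (0.14), and PSMA3 at 100.2 and 108 (0.11). These were the 3 alpha genes whose counting interval lay above 1, and the share of all genes with such an interval was not computed. PSMA5 (80.4 and 82.9) and PSMA7 (49.97 and 50.7) were within a few percent. PSMA4, whose counterpart in yeast has the tail that closes the gate, was at 75.337 and 75.003. PSMA1, the highest gene of the ring, was at 115 and 114, a difference of -0.014 and a count ratio of 0.988 (0.954 to 1.02).

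The beta ring carries the active sites. The 5 of its genes found by the rule were all higher in MP (37.7% of all genes), with a median difference of 0.10. With FPKM totals made equal, 3 of the 5 were higher, against 30.1% of all genes. PSMB4, which has no active site and helps in ring assembly, was the most abundant of all 40 genes, at FPKM 222 in CT and 265 in MP. Its difference was 0.25 and its count ratio 1.19 (1.15 to 1.22). PSMB7, the catalytic subunit with trypsin-like activity, went from 110 to 126, a difference of 0.20 and a count ratio of 1.14 (1.103 to 1.17). PSMB7 was the only catalytic subunit among the 40 genes. No row carried the symbol PSMB5 or PSMB6, the other catalytic subunits, so the values of the ring leave them out. The structural subunits PSMB3 (41.3 and 44.3, a difference of 0.10), PSMB1 (111 and 115, 0.049) and PSMB2 (86.6 and 87.95, 0.022) differed less. PSMB2 was the lowest of the ring by difference, with a count ratio of 1.02 (0.977 to 1.055).

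The ATPase ring, which unfolds substrates and threads them into the core, had 6 of 6 genes higher (37.7% of all genes), by a median of 0.084. With equal FPKM totals 4 of 6 were higher, again against 30.1%. Apart from PSMC4, the 5 genes lay between 0.024 and 0.098. PSMC3 was at FPKM 57.9 in CT and 62.01 in MP, PSMC6 at 98.5 and 105, and PSMC5 at 75.2 and 79.4. PSMC1 was at 58.5 and 60.0. PSMC2, the lowest of the ring by difference, was at 64.0 and 65.1, a count ratio of 1.02 (0.980 to 1.06). PSMC4 had the largest difference of the ring, from 60.3 to 72.7 (0.27), with a count ratio of 1.21 (1.13 to 1.29). Its row is an assembled locus that the table describes by its likeness to a quail protein, and the count implies a transcript of only 528 bases.

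The non-ATPase subunits of the cap differed among themselves. PSMD4, the receptor for ubiquitin chains also known as Rpn10, stood at FPKM 65.3 in CT and 77.4 in MP, a difference of 0.24 and a count ratio of 1.18 (1.13 to 1.23). The large scaffold PSMD2 was at 50.9 and 52.7 (0.051). Its partner PSMD1 was lower, at 44.0 and 39.9, a difference of -0.14 and a count ratio of 0.908 (0.878 to 0.940). So of the 3 base genes 2 were higher (37.7% of all genes) and 1 lower (62.2%). Their median was 0.051 (-0.0071 at equal FPKM totals), 0.12 above that of all genes under both scalings.

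The lid had 3 of 8 genes higher and 5 lower, with a median difference of -0.043. That share was close to the 37.7% of all genes that were higher, and the median lay 0.026 above that of all genes. PSMD14, the metalloprotease that cuts ubiquitin chains off the substrate, was at FPKM 19.2 in CT and 20.4 in MP (0.084). PSMD3 was at 63.0 and 66.3 (0.072). The lower genes were PSMD11 (40.7 and 39.98, -0.026), PSMD7 (74.0 and 70.9, -0.060), PSMD6 (42.3 and 40.1, -0.077), PSMD12 (29.5 and 27.7, -0.086) and PSMD13 (71.9 and 67.2, -0.097). PSMD7 is the inactive partner of PSMD14, and PSMD11 and PSMD6 are structural subunits of the lid. PSMD13 lay lowest, with a count ratio of 0.934 (0.902 to 0.966). PSMD8 stood highest by difference, at 4.96 and 6.21 (0.27), but the interval of its count ratio, 0.907 to 1.72, included 1. It is the other assembled locus, with a mean count of 25.3 in CT and 29.3 in MP and an implied length of 297 bases. With median-of-ratios scaling the lid median was 0.033, when all genes had a median of 0.00, and centred on transcript length it was 0.017.

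**Figure D2:**
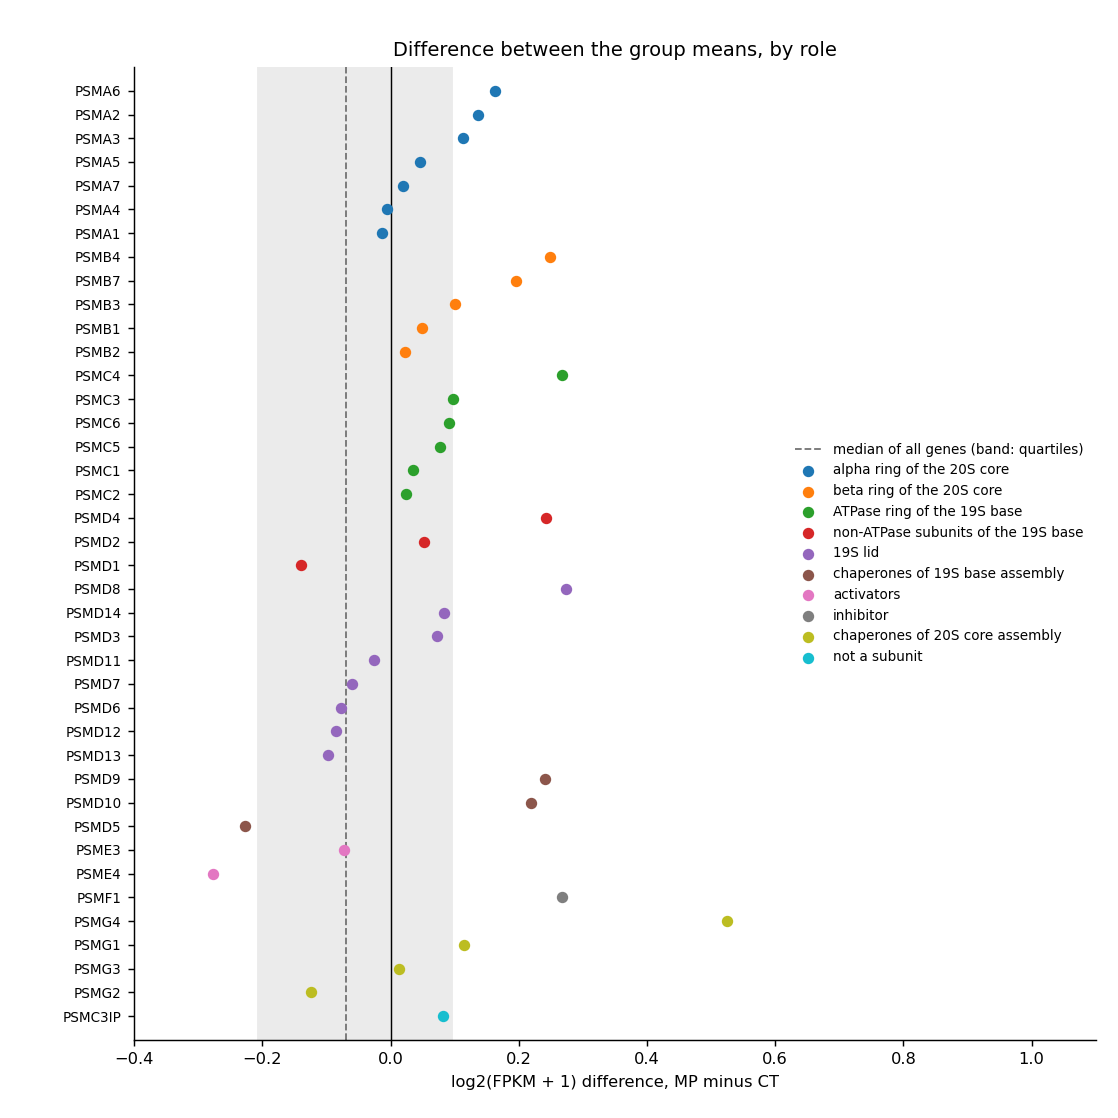
Difference of each gene between the group means on the log2(FPKM + 1) scale, coloured by role, with the median (dashed, -0.069) and the quartiles (band) of all 12828 genes. With FPKM as deposited, the 5 beta genes and the ATPases lie to the right of 0, 5 lid genes to the left, and PSMG4 farthest right at 0.53.

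The widest difference of all belonged to a chaperone of core assembly. PSMG4, which helps to build the alpha ring, stood at FPKM 33.8 in CT and 49.0 in MP, a difference of 0.53. Its mean counts were 351 and 473, a count ratio of 1.45 (1.34 to 1.57). Its partner PSMG3, with which it forms a dimer, was at 41.8 and 42.2 (0.013), a count ratio of 1.01 (0.955 to 1.07). The other pair of core chaperones also divided: PSMG1 was at 9.03 and 9.86 (0.11, count ratio 1.09, interval 1.003 to 1.18), and PSMG2 at 21.8 and 19.9 (-0.12, count ratio 0.909, interval 0.846 to 0.976). In each pair the intervals of the count ratio did not meet. They hold counting error only, and the share of all gene pairs with such intervals was not computed. The implied lengths were 606 bases for PSMG4 and 1088 for PSMG3, and 2424 for PSMG1 and 1483 for PSMG2. The part of length in these differences was not tested.

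The chaperones of the 19S base showed the same lack of a common direction. PSMD9 stood at FPKM 54.1 in CT and 64.1 in MP (0.24), with a count ratio of 1.18 (1.13 to 1.23). PSMD10, also known as gankyrin, went from 28.2 to 33.0 (0.22). PSMD5 differed the other way, from 7.79 to 6.51 (-0.23), and its count ratio was 0.838 (0.774 to 0.907). Each of these chaperones binds an ATPase of the base, and the 6 ATPase genes lay between 0.024 and 0.27.

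Of the regulators that bind the core itself, both activator genes were lower (62.2% of all genes) and the inhibitor gene was higher (37.7%). PSME4, the nuclear activator PA200, stood at FPKM 18.9 in CT and 15.4 in MP, a difference of -0.28 and the lowest of the 40. Its count ratio was 0.819 (0.787 to 0.852). PSME3, the nuclear activator also called PA28-gamma, was at 48.7 and 46.3 (-0.073), a count ratio of 0.953 (0.919 to 0.988). Its difference was close to the median of all genes. With median-of-ratios scaling the difference of PSME3 was 0.0034, and after centring on transcript length it was 0.018. PSMF1, also called PI31, inhibits the core in vitro. It went from 42.5 to 51.4, a difference of 0.27 and a count ratio of 1.21 (1.17 to 1.26). PSMC3IP was at 7.65 and 8.16 (0.082), with an interval of 0.926 to 1.21.

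Median levels per length differed between roles, while the ranges of the roles overlapped. In CT 36 of 40 genes lay above the median of all genes, FPKM 12.8, and 15 lay in the top 10% of them. These 15 were 9 of the 12 core genes, 3 of 6 ATPases and 3 of the 11 other cap genes. The median FPKM in CT was 110 for the beta ring, 75.3 for the alpha ring, 62.1 for the ATPases, 50.9 for the other base subunits and 41.5 for the lid. In MP these medians were 115, 75.003, 68.9, 52.7 and 40.0, in the same order. Although the subunits of a ring stand at equal numbers in the particle, their FPKM differed within each ring. The highest alpha gene exceeded the lowest 2.43 times in CT and 2.25 times in MP. For the beta ring the ratio was 5.39 and 5.97, owing to PSMB4, and for the ATPases 1.70 and 1.75. The assembly chaperones PSMG1 and PSMD5 were the lowest rows apart from PSMD8 and PSMC3IP. Across the 40 genes the FPKM of the groups correlated at r = 0.991 on the log2 scale and at a rank correlation of 0.982, a description over genes that share libraries.

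The contrast between core and cap was small. The median difference was 0.075 for the 12 core genes, 0.051 for the 17 cap genes and -0.026 for the 11 PSMD subunits of base and lid. Summed counts gave ratios of 1.08 (1.07 to 1.09) for the core, 1.06 (1.04 to 1.08) for the ATPases and 1.001 (0.989 to 1.01) for the PSMD subunits. The core median exceeded the cap median by 0.023. Under the other scalings, CPM and the other pseudocount it did so by 0.021 to 0.024. These settings move both medians nearly alike, so that distance could hardly change under them. Without PSMC3IP and the assembled loci it was 0.039. Centred on transcript length the difference of these medians was -0.017. Without libraries of single birds none of these contrasts could be tested. The choice of scaling moved all roles together. With median-of-ratios scaling 33 of 40 genes were higher in MP (50% of all genes), and with equal FPKM totals 20 of 40 (30.1% of all genes). The proteasome median lay 0.14 above that of all genes under the first and 0.13 under the second.

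**Figure D3:**
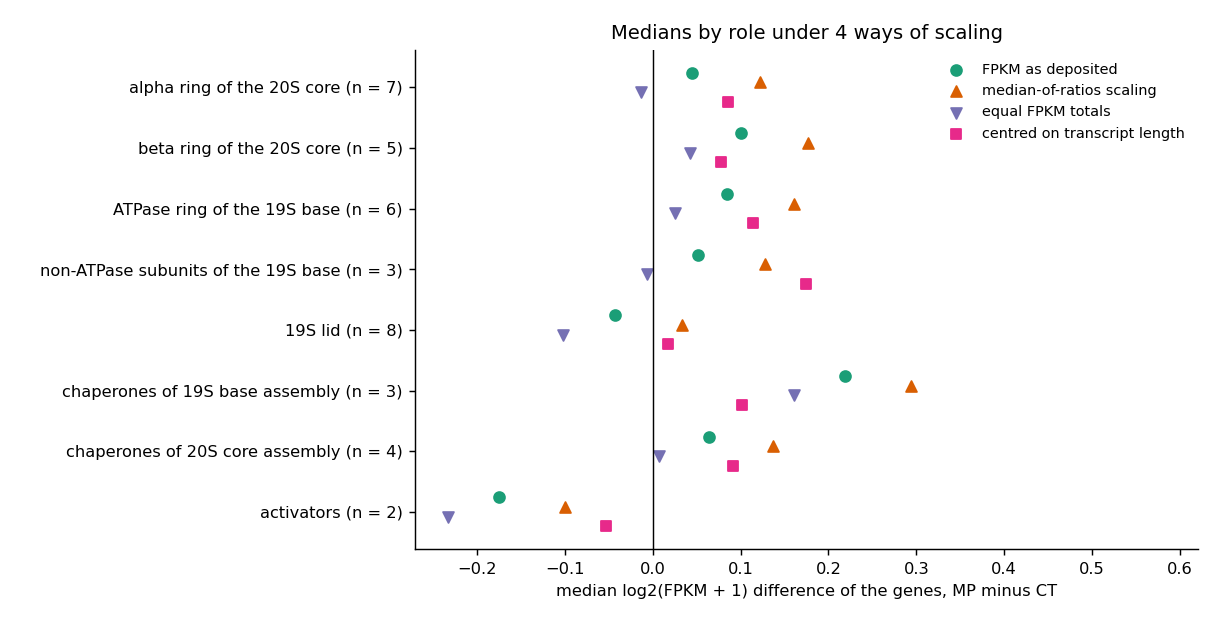
Median log2(FPKM + 1) difference of the genes of each role under 4 ways of scaling, with the number of genes beside each name. From the deposited values to median-of-ratios scaling or equal FPKM totals all roles shift together. Centring on transcript length moves roles in different directions. It takes the base chaperones from 0.22 to 0.10 and the non-ATPase base from 0.051 to 0.17. The lid lies on either side of 0 (-0.043 as deposited, 0.033 with median-of-ratios scaling), and the activators stay below 0 in these 4.

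Differences also followed transcript length, as they did across the whole table. The length implied by count, FPKM and total count had a median of 1450 bases for the 40 genes and 2156 for all genes. Among the 10% of all genes with the shortest implied length the median difference was 0.12, and among the 10% with the longest it was -0.15. Across the 40 genes the difference correlated with log2 of that length at r = -0.60 and with its rank at -0.42, and across 12826 genes at -0.23 and -0.26. Within the 12 core genes r was 0.040 and the rank correlation 0.014. Within the 17 cap genes they were -0.61 and -0.395. All are descriptions over genes that share libraries. The shortest cap genes, the assembled loci PSMD8 (297 bases) and PSMC4 (528 bases), also had the largest differences of the cap (both 0.27). The cap value of r therefore leans on these loci, and r without them was not computed. PSMG4 (606 bases) and PSME4 (5768 bases) stand near the ends of both scales. When all genes were put in 10 bins of implied length and the median of its bin was subtracted from each, 28 of 40 genes were above 0, with a median of 0.082. Then 0 genes were at least 1.1-fold lower, and 2, PSMG4 (0.41) and PSMF1 (0.35), passed 0.32 upward. The shares of all genes past these cuts after centring were not computed. PSME4 then lay at -0.12, PSMD5 at -0.10 and PSMD1 at -0.031. PSMD2, of a length close to that of PSMD1 and PSMD5, lay at 0.17.

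**Figure D4:**
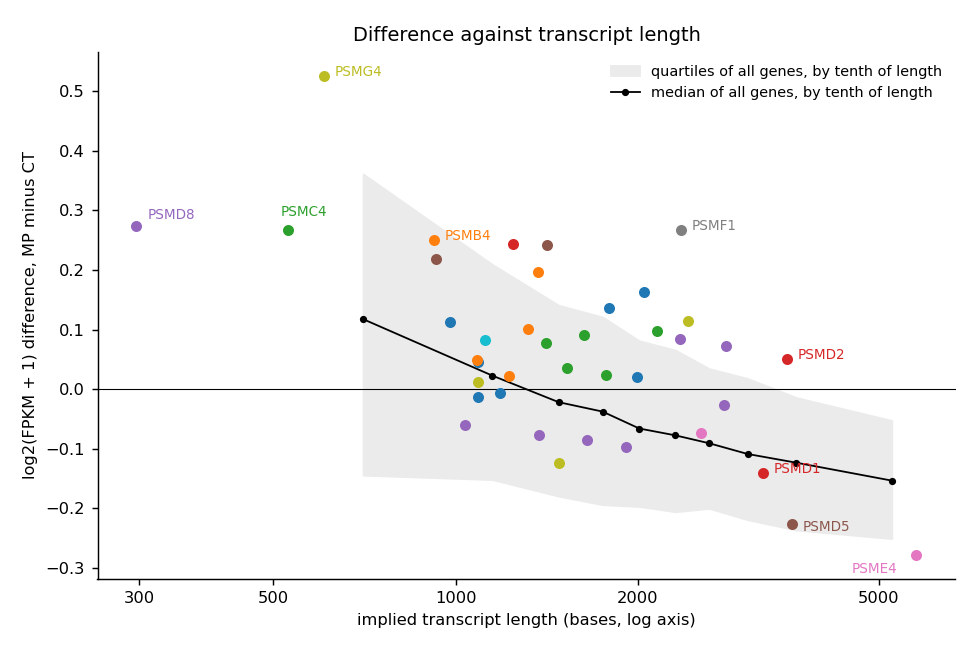
Difference of each gene on the log2(FPKM + 1) scale against the transcript length implied by its count and FPKM (log axis), with the median and quartiles of all genes in 10 bins of length. The all-gene median runs from 0.12 to -0.15. PSMG4 and PSMF1 lie farthest above the median of their bin, and other genes also lie above the band. PSME4, PSMD5 and PSMD1 are among the 12 genes below the median of their bin.

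Other genes of the same machine were read from lists drawn up for this purpose. Of 12 measured further subunits and bound factors 4 were higher in MP, near the 37.7% of all genes, with a median of -0.092. The 4 with the widest difference were UBE3C (FPKM 11.3 in CT and 9.45 in MP), a ligase that extends ubiquitin chains at the proteasome, ZFAND2A (4.03 and 3.34), AKIRIN2 (33.7 and 29.9), which brings proteasomes into the nucleus in human cells, and the deubiquitinase gene UCHL5 (20.3 and 18.2). All 4 were lower. The other 3 genes that carry the KEGG name Proteasome were chosen after their values were seen. The ubiquitin receptor gene ADRM1 was at 57.0 and 62.2 (0.12), the small cap subunit gene SEM1 at 24.9 and 26.7 (0.096), and POMP, the chaperone of beta ring assembly, at 62.1 and 59.5 (-0.062).

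Genes that control proteasome transcription lay close to the bulk of genes. Of 9 measured, 3 were higher, near the 37.7% of all genes. At least 1.1-fold lower were 3 (37.1% of all genes) and at least 1.1-fold higher 0 (20.7%). Past 0.32 lay 0 in either direction (8.49% of all genes higher and 11.2% lower). The median was -0.028, and that of all genes -0.069. KEAP1 (FPKM 17.8 in CT and 14.9 in MP), which marks NFE2L2 for degradation, lay at -0.25, the repressor gene BACH1 (27.4 and 23.3) at -0.23 and the heat shock factor gene HSF1 (14.9 and 12.7) at -0.22. NFE2L2 itself was at 58.5 and 64.1 (0.13). NFE2L1, the factor that raises proteasome genes when degradation is blocked in mammals, was at 83.5 and 83.3 (-0.0042). NFE2L1 was chosen after its values were seen.

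Of 30 genes for ubiquitin and its E1 and E2 enzymes, 6 were higher, a smaller share than the 37.7% of all genes, with a median of -0.094. Among the lower genes were UBE2S (21.99 and 14.02, -0.61), which extends chains for the anaphase-promoting complex, UBE2E2 (4.11 and 2.56, -0.52) and UBE2H (41.9 and 33.2, -0.33). On the log2(FPKM + 1) scale UBE2S was the one gene of the 8 lists past 1.5-fold. UBE2E2, a low gene, had a count ratio of 0.650 (0.522 to 0.807). Of 13 genes for ubiquitin shuttles and the VCP segregase, 4 were higher, with a median of -0.034, again near the share of all genes. The shuttle gene RAD23B was at 49.7 and 43.7 (-0.18), SQSTM1, which also serves autophagy, at 78.9 and 90.9 (0.20), and the VCP cofactor genes UBXN7 and UBXN6 at -0.21 and 0.14.

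Other complexes of the cytosol were read beside the proteasome genes. All 7 measured genes of the CCT chaperonin, which folds actin and tubulin, were lower in MP, by 0.13 to 0.30 and a median of -0.18, and 6 were at least 1.1-fold lower. Of all genes 62.2% were lower and 37.1% at least 1.1-fold lower. The implied lengths of the CCT genes ran from 1882 to 2109 bases, and those of the 40 proteasome genes from 297 to 5768. The part of length in how closely the CCT genes lay was not tested. CCT2 went from FPKM 71.7 to 58.1, CCT7 from 80.8 to 66.1, CCT6A from 87.997 to 76.3 and CCT5 from 102 to 90.1. The COP9 signalosome, a relative of the lid, was more scattered. Of 9 genes 3 were higher, near the 37.7% of all genes. The differences ran from COPS2 (39.1 and 29.6, -0.39) to COPS9 (7.29 and 10.4, 0.46). COPS5, the catalytic subunit of the signalosome, was at 27.7 and 33.4 (0.26) and COPS8 at -0.26.

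Downstream of the proteasome, 5 of 9 genes for MHC class I and peptide loading were higher, against 37.7% of all genes. Their median was 0.095, and it was 0.021 with CPM and 0.035 at equal FPKM totals. The class I heavy chain gene BF2 went from FPKM 1800.4 to 2203 (0.29) and TAPBPL, a peptide editor, from 19.2 to 22.3 (0.21). ERAP1, which trims peptides, was at 61.3 and 53.7 (-0.19) and the chaperone gene PDIA3 at 408 and 359 (-0.18). Of 8 peptidases of the cytosol, which cut the products of the proteasome further, 4 were higher (37.7% of all genes), with a median of 0.0001. TPP2 (18.5 and 15.8) and NPEPPS (48.2 and 42.7) lay at -0.22 and -0.17, NLN at 0.13 and LAP3 at 0.084.

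**Figure D5:**
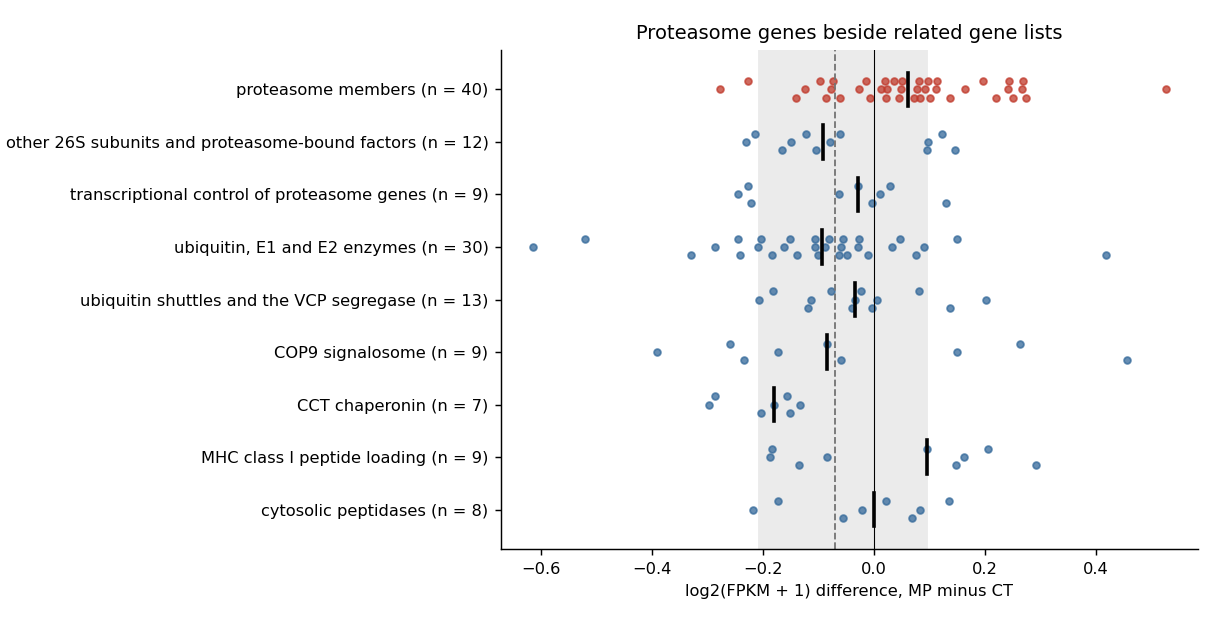
Difference of each gene on the log2(FPKM + 1) scale for the proteasome genes and for 8 related lists (points), with the median of each list (bar) and the median and quartiles of all genes (dashed line and band). The proteasome median is 0.062, that of the CCT chaperonin -0.18 and that of MHC class I and peptide loading 0.095.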

How the data were processed

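RNA from 3 CT and 3 MP ilea was extracted with TRIzol, per the labels' protocols, which name a library kit for small RNA. The tools listed in the submitters' processing notes, without saying what each did, are DESeq2, StringTie 1.3.1, HISAT2, Bowtie2 and fastp 0.18.0. The build and annotation behind the values are not given in these sources, and neither coordinates nor sequences are printed. The authors deposited mean FPKM values and mean estimated counts per group, per the file headers, with no single libraries. Multiplied by 3, 89.9% of the CT counts and 90.2% of the MP counts were whole within 0.002. The table's other 4 value columns match no sample and were not used.

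Differences used a pseudocount of 1, over genes that reached FPKM 1 in CT or MP. No test was run, since group means leave no spread. Count ratios used the mean counts times 3, rounded, with Clopper-Pearson intervals conditional on their sum (scipy 1.17.1). These cover counting error only and hold no variation between birds. Reads without molecular identifiers are not independent molecules, so the intervals may be too narrow for counting error as well. Steps were tested on simulated data. Full statistics were given for the highest and lowest gene of each role, PSMB7 and genes past 0.32 in log2, with values for the other genes; from each related list the 4 genes with the widest difference were named, except 1 gene that is not reported here. Further ratios and genes were chosen after their values were seen. The genes and lists were chosen with earlier results of these data known. Cell type markers were read as summed FPKM.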

Additional observations from a re-analysis of the deposited data

How the results depend on the processing

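No paired analysis was possible because each column averages a group and carries no replicate number, and for that reason leaving out libraries, the edgeR test and DESeq2 were not run. A pseudocount of 0.1 and CPM left every summary of the proteasome genes within its tolerance (1.5 times for counts, the typical counting error of a gene for medians). Omitting PSMC3IP and the assembled loci, chosen after seeing the data, did so too. No filter and a minimum FPKM of 5 could not move these summaries, since all 40 genes reached FPKM 5 in CT or MP.

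The counts of genes past a cut in this paragraph have no all-gene share beside them. Those shares were computed for the deposited values only. As a scaling moves the whole table, these counts are no result about the proteasome genes. With median-of-ratios scaling 20 genes were at least 1.1-fold higher, 5 past 0.32 in log2 and 1 at 1.5-fold. The medians were then 0.14 for all 40 genes, 0.12 for the alpha ring, 0.18 for the beta ring, 0.15 for the core, 0.16 for the ATPases, 0.13 for the other base subunits, 0.033 for the lid, 0.050 for the PSMD subunits, 0.13 for the cap and -0.10 for the activators. With upper-quartile scaling 16 genes were at least 1.1-fold higher. With equal FPKM totals 6 genes were at least 1.1-fold lower and 1 past 0.32 in log2. The medians were then 0.0033 for all 40 genes, where the median of the whole table was -0.12. They were -0.014 for the alpha ring, 0.043 for the beta ring, 0.016 for the core and 0.025 for the ATPases. For the other base subunits and for the cap they were -0.0071, and for the activators -0.23. Centred on transcript length, 0 genes were at least 1.1-fold lower and 2 past 0.32 in log2 upward, and the medians were 0.17 for the non-ATPase base, 0.065 for the PSMD subunits, 0.10 for the base chaperones and -0.053 for the activators. Scaling moves all genes alike, so these values shift with the median of all genes; otherwise the cause was not tested. Relative to the median of all genes, the median of the 40 genes lay between 0.13 and 0.14 under the 3 other scalings. A common factor could hardly change that distance. It was 0.082 after centring on transcript length, and 0.094 when all genes were taken without the filter.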
